A study of Rattus norvegicus with 19 samples.

Results

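The genes of vitamin D, klotho and phosphate handling were followed in the renal cortex of rats with streptozotocin diabetes. They were 10 genes chosen by name: Cyp24a1, Cyp27b1, Vdr, Kl, Fgfr1, Pth1r, Slc34a1, Slc34a3, Slc20a1 and Slc20a2. The scanner files gave these names to 17 of 45598 probes, and all 10 were among the 24238 genes that could be tested. Each of 19 male Crl:CD (SD) rats gave renal cortex RNA to 1 single-colour Agilent array. Sham rats (n = 5) were injected with vehicle and ate normal feed. DKD rats (n = 7) were injected intravenously with 65 mg/kg of streptozotocin, a toxin that destroys the insulin-producing beta cells, and also ate normal feed. DKD+enarodustat rats (n = 7) received the same streptozotocin dose, then feed holding 0.01% (w/w) of enarodustat, which stabilises hypoxia-inducible factor (HIF) by blocking the HIF prolyl hydroxylases. Streptozotocin came 7 days before grouping, which balanced glucose and weight between the diabetic groups, and the kidneys were collected 14 days later. No group received enarodustat without streptozotocin, so the drug was measured in diabetic kidneys only, and each value is an average over all cells of the cortex.

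The kidney sets the level of active vitamin D with a pair of enzymes of opposite action. CYP27B1 in the proximal tubule makes calcitriol, the active hormone, and CYP24A1 breaks it down. Calcitriol acts through the vitamin D receptor, encoded by Vdr, which induces Cyp24a1 and represses Cyp27b1. Parathyroid hormone, acting through the receptor encoded by Pth1r, induces Cyp27b1 and removes phosphate transporters from the brush border. The bone hormone FGF23 acts through FGFR1 with klotho, encoded by Kl, as its co-receptor: it represses Cyp27b1, induces Cyp24a1 and also lowers phosphate reabsorption. Phosphate is taken back from the urine by the sodium-phosphate cotransporters NaPi-IIa (Slc34a1) and NaPi-IIc (Slc34a3), while Slc20a1 and Slc20a2 encode the more widely expressed transporters PiT-1 and PiT-2.

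The stretch before the transcription start was given in RefSeq for 6 of the 10 genes (assembly GRCr8). Shown 5′ to 3′ are the last 250 bases before the start of the genes of the enzyme, the receptor, the co-receptor and the main phosphate transporter, which are the ones with a called difference below. Capitals mark matches, on either strand, to motifs searched: the nuclear receptor half-site AGGTCA and its variants AGTTCA and GGTTCA, the HIF cores ACGTG and GCGTG, the CCAAT box and the TATA box TATAAA. The half-sites share their last bases and the HIF cores differ in their first base.
Cyp27b1, chr7:64756376-64756625, plus strand: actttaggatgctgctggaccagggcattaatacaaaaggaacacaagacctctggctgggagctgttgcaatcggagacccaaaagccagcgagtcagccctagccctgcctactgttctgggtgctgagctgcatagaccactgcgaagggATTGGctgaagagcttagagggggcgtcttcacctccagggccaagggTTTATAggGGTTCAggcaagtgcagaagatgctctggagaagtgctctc
Vdr, chr7:130916758-130917007, minus strand: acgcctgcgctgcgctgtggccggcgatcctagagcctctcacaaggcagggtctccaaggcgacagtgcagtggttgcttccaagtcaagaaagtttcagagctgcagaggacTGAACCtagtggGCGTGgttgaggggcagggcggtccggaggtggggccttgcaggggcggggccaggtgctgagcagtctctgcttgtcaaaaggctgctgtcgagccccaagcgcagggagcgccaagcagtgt
Kl, chr12:5325753-5326002, plus strand: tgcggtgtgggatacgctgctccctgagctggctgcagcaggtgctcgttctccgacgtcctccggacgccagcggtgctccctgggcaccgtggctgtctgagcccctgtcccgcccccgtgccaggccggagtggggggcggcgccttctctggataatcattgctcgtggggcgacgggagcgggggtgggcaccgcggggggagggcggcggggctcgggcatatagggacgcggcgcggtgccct
Slc34a1, chr17:9238984-9239233, minus strand: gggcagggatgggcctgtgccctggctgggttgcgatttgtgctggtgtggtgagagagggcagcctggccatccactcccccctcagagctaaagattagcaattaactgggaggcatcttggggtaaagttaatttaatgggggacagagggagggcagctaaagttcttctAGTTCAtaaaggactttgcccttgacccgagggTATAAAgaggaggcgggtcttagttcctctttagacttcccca
The Cyp27b1 window held GGTTCA 41 bases before the start, with TATAAA and CCAAT on the other strand. The Vdr window held GGTTCA on the minus strand and the HIF core GCGTG 124 bases before the start, and the Slc34a1 window held AGTTCA and TATAAA. None of the letters searched were in the Kl window. Among 33469 windows of this length, 14.1% held AGGTCA, 12.2% AGTTCA, 9.77% GGTTCA, 16.6% ACGTG, 25.9% GCGTG, 34% CCAAT and 12.9% TATAAA. These matches describe letters only.

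The probes, each 60 bases long, decided some of the values below. Genes with several probes are therefore described probe by probe, and a stretch of 30 bases, from the 5′ end except for the bright Fgfr1 probe (3′ end), is shown for the enzymes and for the pairs of probes that differed from each other, with capitals marking a simple repeat inside the probe.
Cyp24a1 probe of NM_201635: taatccaaaaatacgacattgtggccacag
Cyp27b1 probe of NM_053763: taggaaagtgaatctctccttgccttacag
Pth1r probe of XM_008766651: GTCTGTCTGTCTgtgtgccagtatgtattt
Pth1r probe of NM_020073: gtcttcatggccttgccgtacaccgaggtc
Slc34a1 probe of NM_013030: ctgccaattctgctaactgtgcatagaaaa
Slc34a1 probe of AB013453: tccaaatttgcttctccttaattattgcat
Fgfr1 probe of XM_006253324: tatattaaAAACAAACAAACAAACaaaaaa
Fgfr1 probe of NM_024146: tgctcttcaggggaggactctgtcttctct
The bright Pth1r probe opens with 3 copies of GTCT and matches a predicted transcript (XM_ accessions are predicted, NM_ accessions curated). The bright Fgfr1 probe, of another predicted transcript, holds 4 copies of AAAC. Both Slc34a1 probes are free of such repeats. In rn4, the genome build that the headers name, the Cyp24a1 probe lay at chr3:161542181-161542240, the Vdr probe at chr7:136567655-136567714, the Kl probe at chr12:3732717-3732776 and the Slc34a1 probes at chr17:15262929-15262988 (NM_013030) and chr17:15273125-15273184 (AB013453).

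Levels below are log2 of the processed intensity minus the 75th percentile of the array, so that 0 is the level at that percentile. They allow a gene to be compared between arrays and not 1 gene with another. A difference was called when limma's p-value, adjusted by Benjamini-Hochberg over all 24238 genes, was under 0.05. Between 54.5% and 67.3% of all probes were well above background on an array. The 3 slides each held all 3 groups, but slide rows were shared unevenly: the Sham arrays all lay in row 1, the DKD+enarodustat arrays all in row 2, and of the DKD arrays replicates 2 and 4 lay in row 2. On average 64.9% of probes were above background on the arrays of row 1 and 58.3% on those of row 2. By group the means were 64.3% in Sham, 62.8% in DKD and 58.9% in DKD+enarodustat. The comparisons share arrays with each other and are not independent. Markers of proximal tubule, thick ascending limb, collecting duct and podocytes were all measured on the arrays. Of 4 genes chosen as markers of parathyroid and thyroid, tissues that should be absent, Pth and Gcm2 were each above background on 1 of 19 arrays. The thyroid genes Tg and Calca were above background on 17 and 5 arrays.

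DKD was set against Sham to see what streptozotocin diabetes did to these genes. Cyp24a1, Vdr and Slc20a2 were higher in DKD, and Cyp27b1, Kl and Slc34a1 were lower. Fgfr1, Pth1r, Slc34a3 and Slc20a1 did not pass. The 6 calls among 10 genes stand beside 17.1% of all genes called in this comparison (8.02% higher and 9.07% lower). At 4 of the 10, Cyp24a1, Cyp27b1, Vdr and Kl, the DKD and Sham arrays did not overlap, which held for 10.7% of all genes. The median of the 10 differences was -0.03, beside -0.02 for all genes, with 3 genes called in each direction.

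**Figure D1:**
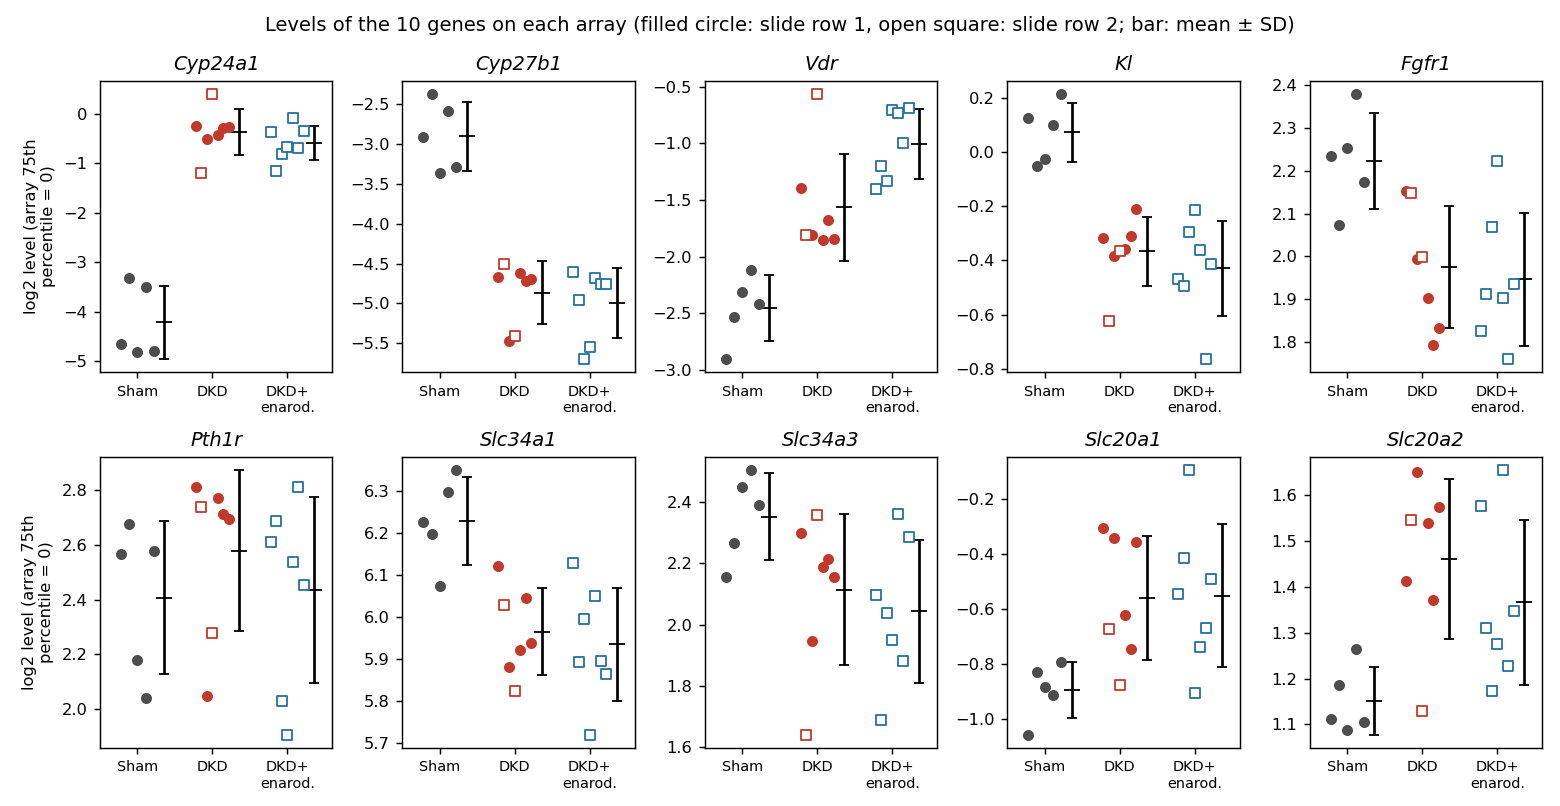
Level of each of the 10 genes on every array (log2, array 75th percentile at 0; each panel has its own scale), with filled circles for slide row 1, open squares for slide row 2 and bars for mean ± SD of 5, 7 and 7 arrays. Cyp24a1 stands far higher and Cyp27b1 far lower in both diabetic groups than in Sham, and Vdr rises from Sham to DKD, with DKD replicate 4 apart from the other DKD arrays.

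Cyp24a1, the enzyme that inactivates calcitriol, had the largest difference of the 10. Its level on the Sham arrays was -4.66, -3.33, -4.80, -3.50 and -4.79 (replicates 1 to 5). On the DKD arrays it ran from -1.19 to 0.39 with a median of -0.29. Every DKD array was therefore above every Sham array, and within Sham replicates 2 and 4 stood above the other 3. The mean processed intensity went from 49.4 in Sham to 792 in DKD. The log2 difference was 3.85 ± 0.29 (SE, n = 7 and 5, limma adjusted p = 2.07e-07), a 14.5-fold rise, and it ranked at position 23 of all 24238 genes by size. The difference was 3.28 within slide 1, 4.10 within slide 2 and 3.87 within slide row 1. The authors' deposited values gave a difference of 2.62, and normexp background correction followed by quantile normalisation gave 2.91, both called. In whole cortex, fewer cells of a type and less RNA per cell cannot be told apart, here or in any result below.

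Cyp27b1, the enzyme that makes calcitriol, went the other way. Its Sham levels were -2.91, -2.38, -3.37, -2.59 and -3.29. DKD levels ran from -5.47 to -4.50 with a median of -4.69. The groups did not overlap, and the lowest DKD values were those of replicates 3 and 4, the pair on slide 2, where the 2 DKD+enarodustat arrays of that slide were also the lowest of their group. The gene fell by 1.96 ± 0.24 on the log2 scale (SE, limma adjusted p = 2.16e-05), a 3.89-fold fall, and by 1.94 and 2.46 within slides 1 and 2. The mean processed intensity was 122 in Sham and 34.8 in DKD, and the probe was above background on all 19 arrays. The difference was smaller in some processings: -1.01 after normexp correction with quantile normalisation (adjusted p = 6.94e-07) and -0.90 from the authors' deposited values (adjusted p = 1.18e-07), against -1.95 with quantile normalisation alone. A second Cyp27b1 probe was above background on 2 of 19 arrays and was not tested.

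Vdr, the calcitriol receptor, was higher in DKD. The Sham arrays read -2.90, -2.54, -2.31, -2.12 and -2.42, and the DKD arrays -1.86 to -0.57 with a median of -1.81. No DKD array fell to the Sham range, and 1 of them, replicate 4, lay well above the other DKD arrays. The difference was 0.89 ± 0.21 (SE, limma adjusted p = 0.00698), or 1.85-fold. Without replicate 4 or any other single array it stayed between 0.72 and 0.97, with adjusted p of at most 0.0256. Within slide row 1 it was 0.74 (adjusted p = 0.0116), and within slides 1 and 2 it was 1.11 and 1.02. So the receptor and the degrading enzyme were higher in the same DKD cortices in which the synthesising enzyme was lower.

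**Figure D2:**
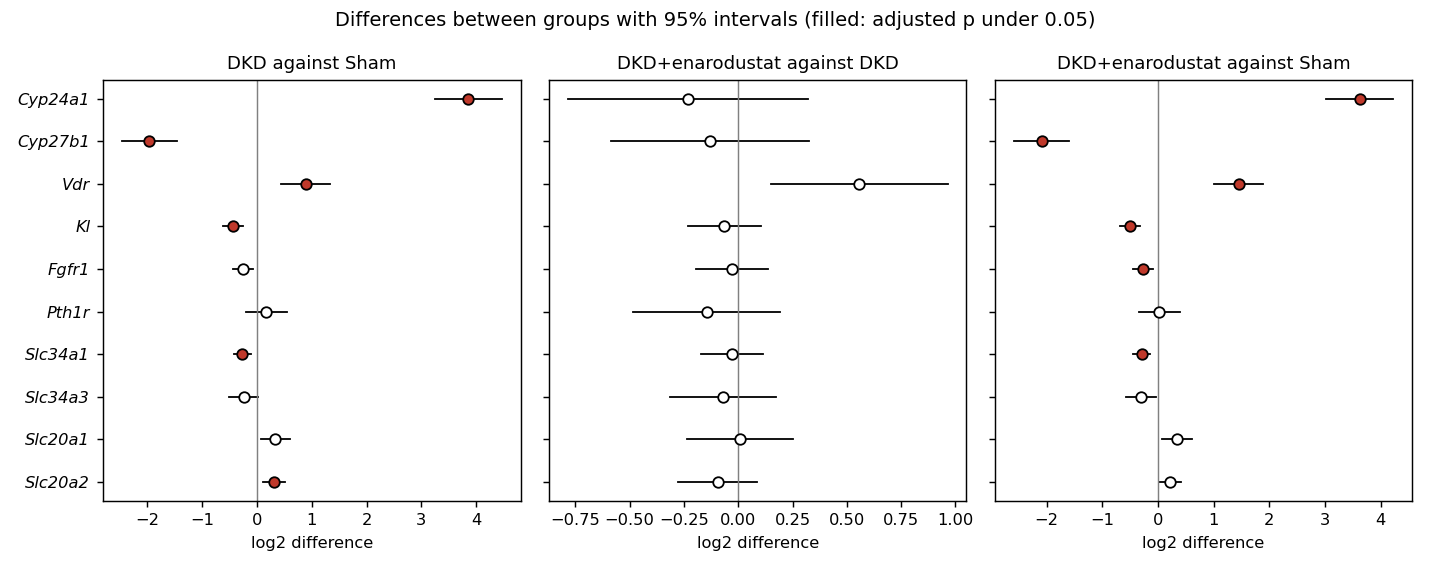
Difference between groups for each of the 10 genes (log2, with 95% intervals of the limma fit), filled where the adjusted p over all genes was under 0.05; the middle panel has a narrower scale. Of the 10 genes, 6 are filled for DKD against Sham, none for DKD+enarodustat against DKD and 6 for DKD+enarodustat against Sham.

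Kl encodes klotho, the co-receptor that lets FGF23 act on the tubule. Its Sham levels were 0.13, -0.05, -0.02, 0.10 and 0.21, and its DKD levels -0.62 to -0.21 with a median of -0.36. The groups were apart although the shift was small. Kl fell by 0.44 ± 0.09 on the log2 scale (SE, limma adjusted p = 0.00202), a 1.36-fold fall, and the difference was -0.39 within slide row 1 and -0.51 and -0.41 within slides 1 and 2. The lowest DKD array was replicate 2.

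Fgfr1, the receptor tyrosine kinase that klotho converts into an FGF23 receptor, did not pass for DKD against Sham. Its bright probe read 2.07 to 2.38 in Sham and 1.79 to 2.15 in DKD, which overlap, and the difference was -0.25 ± 0.09 (SE, limma adjusted p = 0.056). It was called in 9 of 29 alternatives. These were slide as a block (-0.21, adjusted p = 0.0437) or slide row in the model (0.049), normexp with quantile normalisation (0.0238), quantile normalisation alone (0.0329), the authors' deposited values (0.00977), a filter for probes above background on all 19 arrays (0.0411), and leaving out Sham replicate 2, DKD replicate 1 or DKD replicate 2 (0.0455, 0.0375 and 0.0408). The probe of the curated transcript gave -0.22 ± 0.11 (adjusted p = 0.217 over all 30284 probes, of which 16.9% were called). Another probe, of U95164, was above background on 5 of 19 arrays, none of them DKD+enarodustat, and differed by -0.40 ± 0.36 (adjusted p = 0.531).

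For Pth1r, the parathyroid hormone receptor, the probes pulled apart. The bright probe with the GTCT repeat read 2.57, 2.68, 2.18, 2.04 and 2.58 in Sham and 2.05 to 2.81 in DKD, a difference of 0.17 ± 0.18 (SE, limma adjusted p = 0.602). Its low readings in each group were those of replicates 3 and 4, all on slide 2. The probe of the curated transcript NM_020073 read 1.96, 2.12, 2.36, 2.58 and 2.19 in Sham, and 1.58 to 2.34 in DKD. In Sham and DKD its slide 2 arrays were not the low ones, and its difference was -0.37 ± 0.14 (adjusted p = 0.0777). Neither probe passed, and they differed in sign.

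Slc34a1 encodes NaPi-IIa, which carries most of the phosphate reabsorbed in the proximal tubule. The bright probe, of NM_013030, read 6.23, 6.197, 6.08, 6.30 and 6.35 in Sham and 5.82 to 6.12 in DKD with a median of 5.94. DKD replicate 1, the highest of its group, overlapped with the lowest Sham array, replicate 3. Slc34a1 fell by 0.26 ± 0.07 on the log2 scale (SE, limma adjusted p = 0.0197), a 1.2-fold fall. The call was lost when slide row entered the model (adjusted p = 0.0555), within slide row 1 (0.0611), without the 4 arrays of high adipocyte markers described below (0.0798), and without Sham replicate 4 or 5 (0.0524 and 0.0581), while the difference stayed between -0.23 and -0.30 with any 1 array left out. The other probe, of the NaPi-2 alpha mRNA AB013453, showed a larger fall without overlap: Sham read 1.79, 1.88, 2.07, 2.09 and 1.73 and DKD 1.01 to 1.57, a difference of -0.63 ± 0.18 (adjusted p = 0.0192 over all probes).

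**Figure D3:**
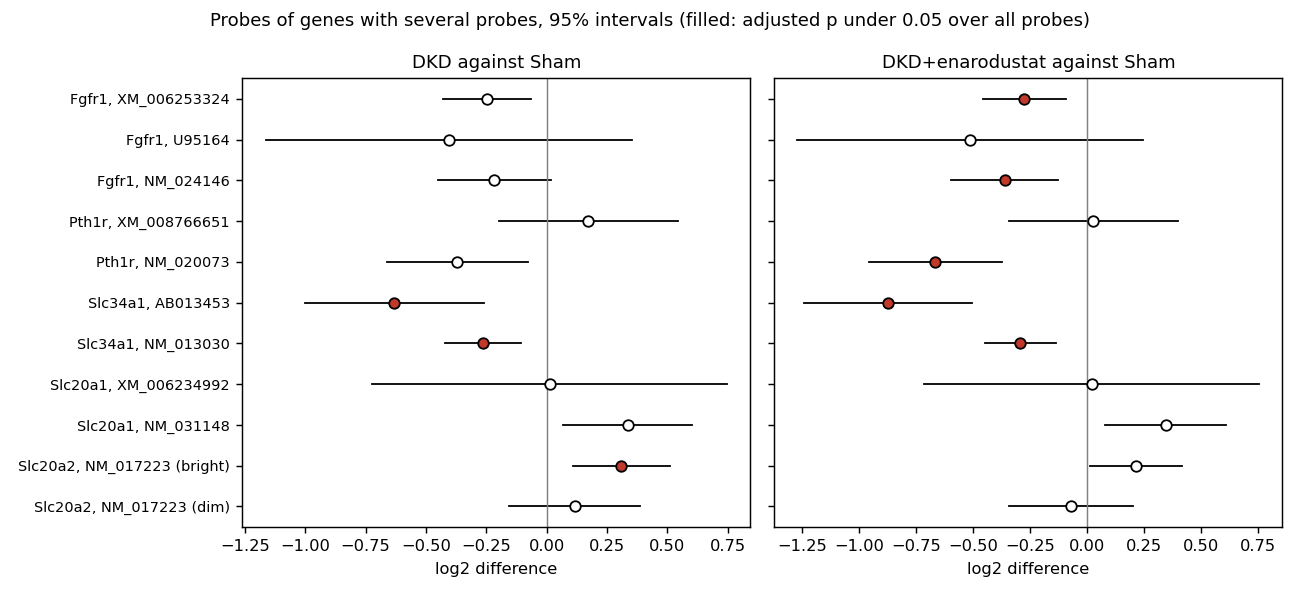
Difference from Sham of each kept probe of the genes with several probes (log2, 95% intervals of the limma fit over all probes), filled where the adjusted p was under 0.05. The Pth1r probes lie on opposite sides of 0 for DKD, the AB013453 probe of Slc34a1 lies further down than the NM_013030 probe, and the brighter of the pair of Slc20a2 probes is the one that is filled.

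Slc34a3, the NaPi-IIc transporter, did not pass. Its levels were 2.15 to 2.50 in Sham and 1.64 to 2.36 in DKD, and the difference of -0.24 ± 0.13 had a 95% interval from -0.51 to 0.03 (SE, limma adjusted p = 0.234). In the authors' deposited values it passed, at -0.31 (adjusted p = 0.0304). Slc20a1, which encodes PiT-1, read -1.06 to -0.79 in Sham and -0.88 to -0.30 in DKD, a difference of 0.34 ± 0.13 (adjusted p = 0.0786). It passed in 5 of 29 alternatives: without DKD replicate 4 (0.39, adjusted p = 0.0432), without the arrays of high adipocyte markers (0.49, adjusted p = 0.00889), and at 0.42 within slide row 1, with slide row in the model and without the DKD arrays of row 2 (adjusted p = 0.0248, 0.0391 and 0.0435). A dim Slc20a1 probe, of XM_006234992, was above background on 8 of 19 arrays and differed by 0.01 ± 0.35 (adjusted p = 0.99).

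Slc20a2, encoding PiT-2, was called higher. Its bright probe read 1.11, 1.19, 1.09, 1.26 and 1.11 in Sham and 1.13 to 1.65 in DKD with a median of 1.54. DKD replicate 4, at 1.13, was the 1 DKD array within the Sham range. The difference was 0.31 ± 0.10 (SE, limma adjusted p = 0.0322), or 1.24-fold. This call was the least firm of the 6 and was lost in 15 of 29 alternatives. With the replicate number as a block it was 0.32 (adjusted p = 0.0501). Processing also decided it: quantile normalisation alone gave 0.26 (adjusted p = 0.0514), centring on the median 0.30 (0.0526) and no filter on dim probes 0.31 (0.0622). Leaving out any of 8 single arrays (Sham replicates 1, 2, 3 and 5, DKD replicates 2, 3, 5 and 7) raised the adjusted p to between 0.0516 and 0.0765. The dimmer probe of the same transcript gave 0.12 ± 0.13 (adjusted p = 0.639).

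DKD+enarodustat was set against DKD to see the effect of the drug in diabetic cortex. Of the 10 genes 0 passed in limma, beside 2% of all genes (1.07% higher and 0.928% lower), and 1 (Vdr) had an unadjusted p under 0.05. The medians were -0.07 for the 10 and -0.02 for all genes. Cyp24a1 read -1.15 to -0.09 with a median of -0.67 in DKD+enarodustat, within the range of the DKD arrays, and differed by -0.23 ± 0.26 (SE, n = 7 and 7, adjusted p = 0.819, 95% interval -0.78 to 0.32). Cyp27b1 read -5.69 to -4.60 with a median of -4.75 and differed by -0.13 ± 0.22 (adjusted p = 0.901, interval -0.59 to 0.33). Kl differed by -0.06 ± 0.08 (adjusted p = 0.847, interval -0.23 to 0.11). In this model, which leaves out slide row, these intervals exclude a return of Cyp24a1, Cyp27b1 or Kl to the Sham means. They do not show that the drug had no effect on these genes. For Kl no such exclusion is claimed with slide row in the model, where its DKD+enarodustat difference from Sham did not pass (below). That difference was called in 24 of 27 alternatives, and not with slide row in the model or within slides 1 and 2.

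By the brightest probe of each gene, Vdr was the 1 member with a hint of a further difference under the drug. Its DKD+enarodustat levels were -1.41, -1.20, -1.33, -0.71, -0.73, -1.0002 and -0.68 (replicates 1 to 7). Of the DKD arrays, 5 lay below all 7 of these, replicate 1 lay at their lower edge and replicate 4 above them. The difference was 0.56 ± 0.19 (SE, limma adjusted p = 0.166). It was called without DKD replicate 4 (0.72, adjusted p = 0.0126), without both DKD arrays of slide row 2 (0.71, adjusted p = 0.0282) and in the authors' deposited values (0.43, adjusted p = 0.04). Within slide row 2 it was 0.18 (2 DKD arrays, adjusted p = 0.956), and within slides 1, 2 and 3 it was 0.30, 0.17 and 0.99. The part of slide row in this difference was not tested apart from these values.

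For the brightest probes of the other members the differences in the drug comparison were small. Fgfr1, Slc34a1 and Slc20a1 differed by -0.03, -0.03 and 0.01, with 95% intervals of -0.19 to 0.14, -0.17 to 0.11 and -0.23 to 0.25. Slc34a3 and Slc20a2 differed by -0.07 and -0.09, with intervals of -0.32 to 0.17 and -0.28 to 0.09. The bright Pth1r probe differed by -0.15 (interval -0.48 to 0.19) and that of the curated transcript by -0.30 (interval -0.56 to -0.03, adjusted p = 0.29 over all probes, of which 1.93% were called). The interval of the curated Pth1r probe thus lay wholly on the negative side, though the probe did not pass. The AB013453 probe of Slc34a1 differed by -0.24 (interval -0.58 to 0.09), the curated Fgfr1 probe by -0.15 (interval -0.36 to 0.07) and the dim Slc20a2 probe by -0.19 (interval -0.44 to 0.06). The U95164 probe of Fgfr1 and the dim Slc20a1 probe, above background on no DKD+enarodustat array, differed by -0.11 ± 0.33 and 0.01 ± 0.32 (SE).

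DKD+enarodustat was also set against Sham. Cyp24a1 and Vdr were higher, and Cyp27b1, Kl, Fgfr1 and Slc34a1 were lower, 6 of 10 beside 26.1% of all genes (10% higher and 16% lower). Cyp24a1, Cyp27b1, Vdr and Kl were without overlap, 4 of 10 beside 14.4% of all genes. Cyp24a1 was higher by 3.62 ± 0.29 (SE, n = 7 and 5, limma adjusted p = 1.55e-07), and Cyp27b1 fell by 2.09 ± 0.24 (adjusted p = 6.24e-06). Vdr was higher by 1.45 ± 0.21 (adjusted p = 7.97e-05), a 2.73-fold difference, and Kl fell by 0.50 ± 0.09 (adjusted p = 0.000411). When slide row entered the model, the share of all genes called went from 26.1% to 4.26%. Of the members Cyp24a1 and Cyp27b1 alone were then called (3.67 and -1.97), while Vdr and Kl were at 0.92 and -0.32 (adjusted p = 0.157 and 0.267). Row and group could hardly be told apart here, since Sham filled row 1 only and DKD+enarodustat row 2 only.

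Among the receptors and transporters set against Sham, Fgfr1 fell by 0.28 ± 0.09 (limma adjusted p = 0.0241) with its bright probe and by 0.36 ± 0.11 with that of the curated transcript (adjusted p = 0.0228 over all probes, of which 26.4% were called). Without Sham replicate 3 or 4 the bright probe did not pass (adjusted p = 0.0535 and 0.0733). Slc34a1 fell by 0.29 ± 0.07 (adjusted p = 0.00688) and its AB013453 probe by 0.87 ± 0.18 (adjusted p = 0.00134), with DKD+enarodustat replicate 6 the lowest at 0.22. The curated Pth1r probe fell by 0.67 ± 0.14 (adjusted p = 0.00173), from 1.96 to 2.58 in Sham to 1.29 to 1.91 without overlap, while the bright Pth1r probe differed by 0.03 ± 0.18 (adjusted p = 0.944). Slc34a3, Slc20a1 and Slc20a2 had differences of -0.31, 0.34 and 0.22, none past the threshold (adjusted p = 0.0834, 0.053 and 0.108). With the replicate number as a block Slc34a3 and Slc20a1 passed (-0.33 and 0.35, adjusted p = 0.0438 and 0.0351). Slc34a3 also passed with normexp and quantile normalisation (adjusted p = 0.02), quantile normalisation alone (0.0292), the authors' deposited values (0.00855), slide as a block (0.0341) and without DKD+enarodustat replicate 5 (0.0436). Slc20a1 also passed in the authors' deposited values (0.0295), with the filter for all 19 arrays (0.0396) and without replicate 4 or 5 of that group (0.0208 and 0.0452). Slc20a2 passed without the arrays of high adipocyte markers (0.25, adjusted p = 0.0492). The remaining probes, dim for Slc20a1 and Slc20a2 and of U95164 for Fgfr1, differed from Sham by 0.02, -0.07 and -0.51 and did not pass.

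The other genes of the pathway were counted from 6 lists, and the first held the supply and reception of vitamin D. For DKD against Sham 3 of 17 rose and 6 fell (median -0.18), beside 8.02% and 9.07% of all genes with a median of -0.02, the background for the DKD counts of all 6 lists. Gc, the plasma carrier of vitamin D, fell by 2.58 ± 0.56 on the log2 scale (SE, limma adjusted p = 0.00379). Of the endocytic receptors that bring the carrier into the proximal tubule, Lrp2 (megalin) fell by 0.62 ± 0.12, with its adaptor Dab2 (down by 0.32) and the cubilin partner Amn (down by 0.48), while Cubn (cubilin) rose by 0.51 ± 0.08 (adjusted p = 0.000287). Cyp27a1, a mitochondrial sterol hydroxylase that can 25-hydroxylate vitamin D, rose by 0.57 ± 0.10 (adjusted p = 0.000588). Dhcr7, which uses up the vitamin D precursor, rose by 1.07 ± 0.29 (adjusted p = 0.0154), and Pdia3, a membrane-associated binder of calcitriol, fell by 0.22 ± 0.07 (adjusted p = 0.0484). The VDR partners Rxra, Rxrb and Rxrg differed by -0.18, -0.10 and -0.20 and did not pass. In the drug comparison 1 of these 17 passed, beside 2% of all genes. Cyp2r1, the main hepatic 25-hydroxylase, fell by 0.37 ± 0.09 (limma adjusted p = 0.0344), and its DKD and DKD+enarodustat arrays overlapped. This model leaves out slide row. With row in the model 0.347% of all genes were called in this comparison, and the value of Cyp2r1 in that fit is not given here.

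In the FGF23 and klotho list 0 of 9 measured genes rose and 4 fell for DKD against Sham (median -0.20), beside 8.02% and 9.07% of all genes. These were Galnt3, the glycosyltransferase that protects FGF23 (down by 0.87 ± 0.26, adjusted p = 0.0273), Fam20c, the kinase that marks FGF23 for cleavage (down by 0.53 ± 0.11, adjusted p = 0.00297), Fgfr4 (down by 0.40) and Enpp1 (down by 0.37). Adam10 and Adam17, the proteases that shed klotho from the membrane, differed by -0.11 and -0.06 and did not pass. Fgf23, Phex and Dmp1, genes of bone, were above background on at most 4 arrays and were not tested. Among 7 measured response genes of FGF and ERK signalling 2 rose and 1 fell: Spry1 rose by 0.42 ± 0.08 (adjusted p = 0.000997), the ERK phosphatase Dusp6 by 0.57 ± 0.19 (adjusted p = 0.0448), and Etv5 fell by 0.92 ± 0.16 (adjusted p = 0.000573). Egr1, the immediate early gene, had a difference of 0.84 ± 0.31, short of the threshold (adjusted p = 0.0726).

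The list of the parathyroid hormone pathway had 0 of 10 higher and 3 lower (median -0.11), beside 8.02% and 9.07% of all genes. Plcb1 and Gnaq, of the phospholipase C arm of the receptor, fell by 0.44 ± 0.11 and 0.45 ± 0.14 (limma adjusted p = 0.00819 and 0.0316), and the calcium-sensing receptor Casr by 0.40 ± 0.13 (adjusted p = 0.044). Gnas, Adcy6 and Prkaca, of the cyclic AMP arm, differed by -0.01, -0.11 and -0.09 and did not pass.

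Among 14 partners of the phosphate transporters and other phosphate genes, 3 rose and 3 fell (median 0.02), beside 17.1% of all genes called. Pdzk1, a scaffold that binds NaPi-IIa at the brush border, fell by 0.37 ± 0.08 (limma adjusted p = 0.00257), and for its relative Nherf1 the difference of -0.22 missed the threshold (adjusted p = 0.188). Xpr1, the phosphate exporter, fell by 0.60 ± 0.09 (adjusted p = 0.000222), and Slc37a4, the glucose-6-phosphate transporter, by 0.41 ± 0.09. Slc34a2, the NaPi-IIb transporter best known from gut and lung, rose by 1.00 ± 0.28 (adjusted p = 0.0207), Slc17a1 by 0.63 ± 0.17 (adjusted p = 0.0144) and the inositol hexakisphosphate kinase Ip6k2 by 0.48 ± 0.14 (adjusted p = 0.0246).

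Of 9 targets of the vitamin D receptor in calcium transport 3 rose and 1 fell (median 0.23), beside 8.02% and 9.07% of all genes. The calcium-binding proteins S100g (calbindin-D9k) and Calb1 (calbindin-D28k) rose by 1.22 ± 0.17 and 0.84 ± 0.22 on the log2 scale (limma adjusted p = 0.000106 and 0.0153). The calcium channel gene Trpv6 was above background on 0 of 5 Sham and 7 of 7 DKD arrays. Its fitted difference was a 2.82-fold rise in DKD (limma adjusted p = 0.000255), an estimate that rests on Sham readings not above background. Trpv6 passed the filter on dim probes through the diabetic arrays alone, so it had to differ, and its p and its place among the 3 that rose support nothing further. The calcium pump gene Atp2b1 fell by 0.27 ± 0.06 (adjusted p = 0.00427), and Trpv5 and the exchanger Slc8a1 differed by 0.23 and 0.25 and did not pass. Outside the vitamin D supply list, 0 genes of these lists passed for DKD+enarodustat against DKD, beside 2% of all genes. Against Sham, where 10% of all genes were higher and 16% lower, the DKD+enarodustat arrays gave 2 higher (Trpv6 among them) and 3 lower among these 9 targets, 3 and 4 among the 14 phosphate genes, 0 and 2 among the 10 of the parathyroid hormone pathway, 3 and 1 among the 7 response genes, 0 and 5 among the 9 of the FGF23 list, and 2 and 8 among the 17 of the supply list.

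**Figure D4:**
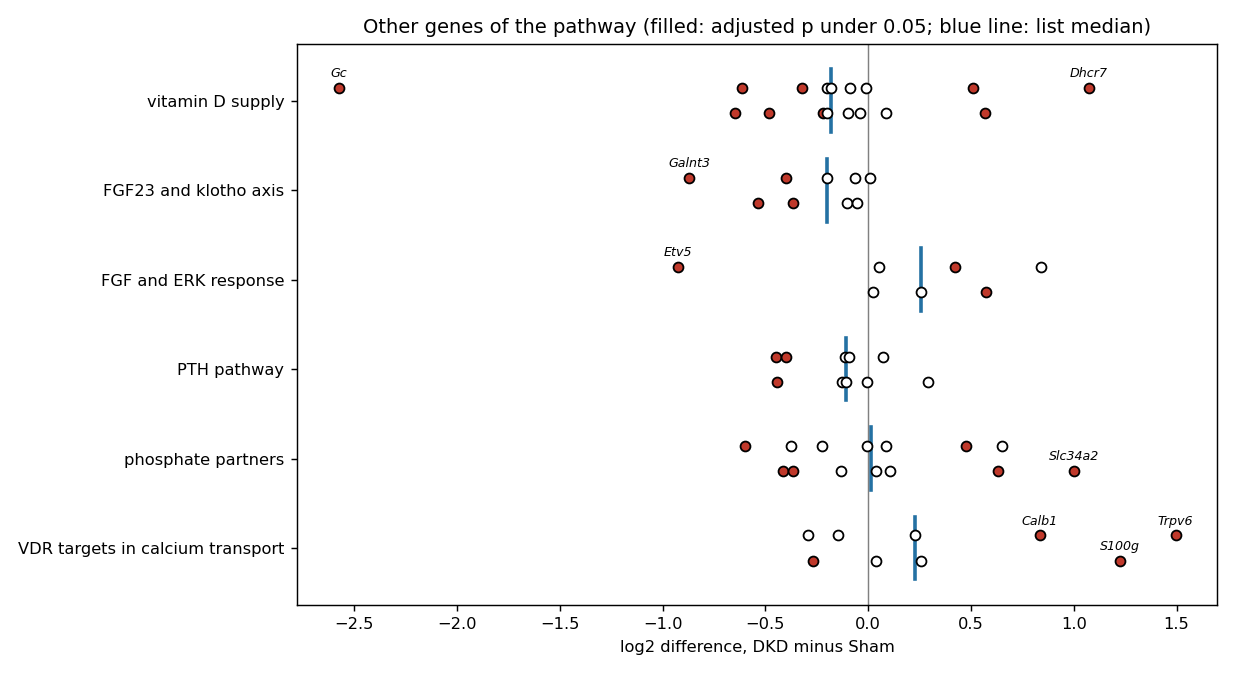
Difference of DKD from Sham (log2) for each measured gene of the 6 lists, filled where the limma adjusted p was under 0.05, with a blue line at the median of each list. The supply and FGF23 lists have medians of -0.18 and -0.20, Gc is the lowest point and Trpv6, S100g, Dhcr7 and Slc34a2 are the highest.

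Markers of cell types moved with some of these genes. The counts that follow, for DKD against Sham, stand beside 8.02% of all genes higher and 9.07% lower. Of 10 markers of the first proximal tubule segments, the main site of Slc34a1, 2 rose and 5 fell for DKD against Sham, and their summed level was 8.01 to 8.14 on the Sham, 7.54 to 7.84 on the DKD and 7.54 to 7.86 on the DKD+enarodustat arrays. A summed level is the log2 of the sum of the unlogged levels, so the brightest genes of a list weigh most. Of 5 markers of the last proximal segment 1 (Slc27a2) rose and 1 (Slc7a13) fell, while their summed level was 4.74 to 5.32 in Sham and 5.32 to 5.59 in DKD. Of 5 podocyte markers 0 rose and 2 fell, with summed levels of 3.36 to 3.65 and 2.90 to 3.34, which did not overlap. Among all single genes 10.7% were without overlap, and no such share was taken for summed levels. Of 5 thick ascending limb markers 0 rose and 3 fell, with summed levels of 6.91 to 7.18 in Sham and 5.82 to 6.77 in DKD. Of 6 distal convoluted and connecting tubule markers, from segments rich in Kl, 1 (Calb1) rose and 0 fell, with summed levels of 1.87 to 2.99 and 2.24 to 3.09. Of 6 tubular injury markers 4 rose and 1 fell (2.46 to 3.24 in Sham and 3.84 to 5.42 in DKD), and of 6 adipocyte markers 3 rose (-1.26 to -0.50 in Sham and -0.49 to 3.84 in DKD). Among these 3, Lep was above background on 0 Sham, 4 DKD and 3 DKD+enarodustat arrays. Lep therefore passed the filter on dim probes through the diabetic arrays alone and had to differ, so its place in the count supports nothing further. The adipocyte signal was highest in DKD replicates 2 and 4. Without the 4 arrays highest in it (DKD replicates 2, 4 and 6 and DKD+enarodustat replicate 3), Cyp24a1, Cyp27b1, Vdr and Kl differed by 3.85, -1.96, 0.73 and -0.39 for DKD against Sham, each still called. Of 7 collecting duct markers 2 rose and 1 fell. The part of cell composition and injury in the results was not tested.

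The genes whose pattern over the 19 arrays lay closest to a member were found by the root-mean-square difference of centred log2 levels. For Cyp24a1 they included Baat, which conjugates bile acids (0.48), and Angptl4, an inhibitor of lipoprotein lipase (0.63), against 1.72 for the spread of Cyp24a1 itself. For Cyp27b1 they were Hspbap1 (0.44), the transporter gene Slc16a4 (0.46) and the basement membrane collagen Col4a4 (0.47), against 0.97. Vdr was most like the proteoglycan Sdc1 (0.31), Mxd1 (0.32) and the cytokine Clcf1 (0.33), against 0.66. Kl was most like the histone gene H2aj (0.09), Casz1 (0.10) and Pdzk1, the NaPi-IIa scaffold named above (0.12), against 0.25. For the members with small differences the nearest genes were Gna12 for Slc34a1, Atp6v1d for Slc20a2 and Adamts10 for Fgfr1 (0.08, 0.10 and 0.09, against own spreads of 0.16, 0.19 and 0.17).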

How the data were processed

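Renal cortex RNA of 19 rats was measured on 1 single-colour array each. Each deposited scanner file holds the processed Cy3 intensity of every spot, which, per the file headers, the authors made in Feature Extraction (version 11.5.1.1). Log2 values of 22739 probes, also deposited by the authors, were used as an alternative; their normalisation is not given in the sources used here, and the submitters' processing notes name limma without a step. From the intensities, log2 was taken, the array's 75th percentile subtracted, spots marked as outliers left out and spots of a probe averaged. Probes well above background on at least 5 of 19 arrays were kept (30284 of 45598, 16 of the 17 member probes). Names came from a RefSeq table of GRCr8 by accession (21109 probes), from another probe of the same file name (1977), or else from the files. Each gene took its brightest kept probe by mean. A single model of the 3 groups was fitted (limma 3.58.1, R 4.3.3; lmFit, eBayes, no covariate, 16 residual degrees of freedom), two-sided, with Benjamini-Hochberg over all genes and a threshold of 0.05; the probe-level fit covered all kept probes.

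The members and gene lists were chosen with earlier results of these data known. All 10 members are reported with each of their probes. In each list up to 4 genes were named by smallest adjusted p in any comparison, with those needed to read a count; other list genes, such as Rxra, Gnas, Adam10 and the claudins, were named after their values were seen. Some genes that the rules name are not reported here. Likeness was searched for members that passed, among genes above background on as many arrays.

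Replicate numbers follow the slides (1 and 2 on slide 1, 3 and 4 on slide 2, 5 to 7 on slide 3). Same-numbered arrays deviated together from their group means (r = 0.13 to 0.59 over 5 pairs of DKD and Sham, 0.14 to 0.42 over 7 pairs of DKD+enarodustat and DKD, 0.14 to 0.47 over 5 pairs of DKD+enarodustat and Sham), so a replicate block was run as an alternative. Labels do not state separate litters or batches, each array is taken as 1 rat, and the number of arrays limits the precision. A test on simulated data with 200 changed genes among 24238 recovered for DKD against Sham 34.3% at a log2 size of 0.5, 64.6% at 1 and 84.6% at 2, and 3.2% of its calls were false. The simulated arrays were drawn independently, without shared slide or row effects. Far fewer genes were changed in them than the 4143 called for DKD against Sham, so these shares need not hold for the real arrays. Figures were drawn with matplotlib.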

Additional observations from a re-analysis of the deposited data

Results flagged for a closer look

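An array was singled out where its gap to the nearest array of its group exceeded Dixon's 95% critical value. Over 51 groups of probe and condition 5 arrays met this, and chance alone marks about 1 in 20 groups. Vdr in DKD replicate 4 stood at -0.57, above the next DKD array at -1.40. Kl in DKD replicate 2 stood at -0.62, below the next at -0.38. Both arrays lay in slide row 2 and had the highest adipocyte marker signal of the DKD group (3.84 and 3.49, as log2 of the summed unlogged levels), and the part of either in these levels was not tested. Dim probes gave the other 3. The Cyp27b1 probe left untested stood at -5.08 in DKD+enarodustat replicate 5 against -8.50 for the next array, while the bright Cyp27b1 probe read -4.68 there, within its group's range of -5.69 to -4.60. The dim Slc20a1 probe stood at -8.66 in DKD+enarodustat replicate 1, where it was not well above background. The dim Slc20a2 probe stood at -3.71 in Sham replicate 4, against -4.00 for the next array.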

How the results depend on the processing

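Over 29 alternatives for DKD against Sham, Cyp24a1, Cyp27b1, Vdr and Kl lost their call only within slides 1 and 2, where 0 members passed. Of all 24238 genes 0 and 2 were called there, with 2 arrays a group. Almost no gene could pass in these fits, so the lost calls say nothing about the members. Slide 3 held 1 Sham array and was not fitted on its own. Slc34a1 lost its call in 8 of the 29 alternatives and Slc20a2 in 15, the fits within slides 1 and 2 among them. For DKD+enarodustat against Sham 2 members passed with slide row as a covariate and 0 within slides 1 and 2. For DKD+enarodustat against DKD 1 member, Vdr, passed in the authors' value table and without the DKD arrays of slide row 2, and 0 to 1 passed with 1 array left out (1 without DKD replicate 4). With a replicate block 5, 0 and 8 members passed for DKD against Sham, DKD+enarodustat against DKD and DKD+enarodustat against Sham; Slc20a2 lost its DKD call and Slc34a3 and Slc20a1 gained calls in the last, and the block changed no other call.

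Some differences that were small in the main fit changed sign. Pth1r for DKD+enarodustat against Sham was -0.0532 with normexp, -0.0897 with quantile normalisation, -0.0053 centred on the median, -0.0625 in the authors' values, -0.0332 and -0.0377 with slide and replicate blocks, -0.14 within slide 2, -0.32 as the mean of probes and -0.67 with curated probes first, and -0.0654 to 0.11 with 1 array left out; for DKD against Sham the last 2 probe choices gave -0.0985 and -0.37. Of the drug comparison, Slc20a1 was -0.0153 centred on the median, -0.0594 within slide 3, -0.0778 without the DKD arrays of row 2, -0.22 without the arrays of high adipocyte markers and -0.0677 to 0.0678 with 1 array left out. Fgfr1 was 0.15 and 0.0228 within slides 2 and 3, 0.0116 without the DKD arrays of row 2 and -0.0739 to 0.0031 with 1 left out. With the row covariate or row 2 only Kl was 0.0642, Slc34a1 0.0098, Slc34a3 0.0437 and Slc20a2 0.0289; within slide 2 Kl was 0.12 and Slc34a1 0.0057, and Slc34a1 was -0.0621 to 0.0057 with 1 left out. For Pth1r the settings of mean of probes and curated probes first bring in its curated probe. That probe differed by -0.67 for DKD+enarodustat against Sham (called) and by -0.37 for DKD against Sham (not called). The cause of the other sign changes was not tested. The settings of row 2 only, adipocyte markers and curated probes were chosen after seeing the data.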

Other observations

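Stc1, the secreted stanniocalcin that acts on renal phosphate transport, differed by 0.65 ± 0.29 for DKD against Sham (SE, n = 7 and 5, limma adjusted p = 0.142) and by 0.54 ± 0.26 for DKD+enarodustat against DKD (n = 7 and 7, adjusted p = 0.387). It was called for DKD+enarodustat against Sham, at 1.19 ± 0.29 (adjusted p = 0.00543), where no array overlapped. Dusp6 had the same order of means, at 1.19 in Sham, 1.76 in DKD and 2.27 in DKD+enarodustat, with 0.51 ± 0.17 for the drug comparison (adjusted p = 0.152). Calb1 stood at 0.06, 0.89 and 0.47 in the same order, and its drug comparison of -0.42 ± 0.21 did not pass (adjusted p = 0.383). In the claudins of paracellular calcium transport, Cldn2 and Cldn12 were lower in DKD+enarodustat than in Sham, by -0.36 and -0.37 (adjusted p = 0.0152 and 0.0112), and did not pass for DKD (-0.29 and -0.15).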
